A study of Mus musculus with 2 samples.

Results

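Matrix metalloproteinases and their inhibitors were followed across the cells of mouse G422 gliomas grown in the brain. The 9 genes were chosen by name and matched to the gene symbols of the deposited tables, in which all 9 were found among 27998 genes. They comprise 6 proteases, Mmp2, Mmp3, Mmp9, Mmp10, Mmp13 and Mmp14, and 3 inhibitors, Timp1, Timp2 and Timp3.

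Matrix metalloproteinases are zinc enzymes, made as inactive precursors, that cut collagens, laminins, fibronectin and proteoglycans, and also growth factors and receptors at the cell surface. Most are secreted, while Mmp14 is anchored in the plasma membrane and, together with Timp2, activates the Mmp2 precursor there. The tissue inhibitors of metalloproteinases bind the active enzymes, so the outcome in a tissue depends on both groups and on activation, which transcript counts do not measure. In gliomas these enzymes are known for their part in the invasion of brain tissue and in vessel growth, and they come from tumour cells as well as from microglia and other myeloid cells.

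The study profiled brain tumours of Kunming mice, an outbred stock, inoculated with G422 glioma cells, by droplet single-cell RNA sequencing. The control library came from untreated tumours at day 7 after inoculation. The LTS library came from long-term survivors: mice that outlived a first tumour by more than 100 days after a combined therapy, which the labels do not name, and were inoculated again in the contralateral hemisphere, with harvest also given as day 7. The text also says that these mice again outlived 100 days, and does not say from which inoculation day 7 was counted. How many mice a library came from is not stated. All tumours came from a single transplanted cell line, brains were digested with collagenase and DNase, and the cells were taken from the 70/37% interphase of a Percoll gradient, a layer that enriches immune cells, so shares of cell types are shares of that layer.

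There was 1 library per group, so no difference between control and LTS has a replicate behind it and none was tested. Intervals below are 95% intervals that cover counting error only. Levels are given as CPM, a gene's unique molecular identifiers (UMIs, each standing for 1 captured transcript end) in every 1000000 UMIs of the cells concerned. Because the chemistry counts transcript ends, CPM of different genes can be set side by side without a length correction.

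After barcodes with at least 1000 UMIs, at least 300 genes and at most 15% mitochondrial UMIs were kept, 8310 cells remained in control (median 14889.5 UMIs) and 4835 in LTS (median 18779 UMIs), and 13 barcodes occurred in both libraries. Clustering without the 9 genes or any other gene of the protease lists gave 5147 control and 2603 LTS tumour cells, with medians of 20334 and 40526 UMIs. Host cells comprised 750 and 633 microglia-like, 436 and 232 monocyte-like, 80 and 56 dendritic cell-like, 87 and 474 T cell-like, 24 and 72 B cell-like, 126 and 62 endothelial-like, and 10 and 64 choroid plexus-like cells. Ptprc, the pan-leukocyte gene, stood at 2.32 and 1.96 CPM in tumour cells against 244 and 280 CPM in microglia-like cells. Within the tumour cells 9 states were separated and named from fixed marker lists or, where none matched, from their leading genes. Clusters 0, 10, 13 and 17 stayed unnamed, with 900, 392, 225 and 133 control and 270, 244, 95 and 30 LTS cells. Clusters 0 and 17 had under 3 markers of every non-tumour list, and cluster 0 carried tumour markers at 113% of the tumour level. Cluster 10 held 8 of 9 microglia markers, but few UMIs and none of these markers among its top 10 genes. Cluster 13 held 6 of 9, but tumour markers at 85.0% of the tumour level.

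Mmp13, Mmp3 and Mmp10 lie close together. In GRCm38 with GENCODE M21 annotation, Mmp13 spans chr9:7272514-7283331, Mmp3 chr9:7445822-7455975 and Mmp10 chr9:7502352-7510240, all on the plus strand. The 237727 bases from the start of Mmp13 to the end of Mmp10 hold 5 protein-coding genes, all of them metalloproteinases, with Mmp12 and Mmp1b between Mmp13 and Mmp3. The other members are dispersed: Mmp2 at chr8:92827291-92853420, Mmp9 at chr2:164940780-164955850, Mmp14 at chr14:54431612-54445364, Timp1 at chrX:20870166-20874735, Timp2 on the minus strand at chr11:118301069-118355740 and Timp3 at chr10:86300372-86349506.

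RefSeq promoter sequences (GRCm38.p6) were matched for 7 of the 9 genes. The 250 bases before the annotated start are shown for the 3 neighbours on chromosome 9 and for Mmp14. As described below, Mmp10 and Mmp13 were each found with Mmp3 in some tumour cells. In the tumour cells richest in Mmp3, the Mmp14 level was close to that of other tumour cells. Capitals mark an AP-1 motif (TGANTCA, where Fos and Jun proteins are known to bind) and a TATA motif (TATAAA), searched on both strands. The windows are chr9:7445572-7445821 for Mmp3, chr9:7502092-7502341 for Mmp10, chr9:7272264-7272513 for Mmp13 and chr14:54431348-54431597 for Mmp14, all on the plus strand.
Mmp3: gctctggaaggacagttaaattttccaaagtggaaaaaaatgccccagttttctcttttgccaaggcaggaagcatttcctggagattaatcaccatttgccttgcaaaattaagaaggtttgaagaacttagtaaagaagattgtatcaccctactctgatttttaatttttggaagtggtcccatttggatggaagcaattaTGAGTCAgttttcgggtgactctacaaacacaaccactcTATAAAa
Mmp10: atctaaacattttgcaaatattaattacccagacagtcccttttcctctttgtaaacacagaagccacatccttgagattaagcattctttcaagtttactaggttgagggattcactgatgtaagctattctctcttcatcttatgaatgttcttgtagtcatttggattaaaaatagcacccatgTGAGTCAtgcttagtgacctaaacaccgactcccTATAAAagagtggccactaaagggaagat
Mmp13: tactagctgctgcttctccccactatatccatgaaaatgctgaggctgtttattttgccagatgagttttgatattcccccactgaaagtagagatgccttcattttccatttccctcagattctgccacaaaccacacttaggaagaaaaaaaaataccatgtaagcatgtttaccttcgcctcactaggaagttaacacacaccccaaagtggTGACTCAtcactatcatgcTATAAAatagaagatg
Mmp14: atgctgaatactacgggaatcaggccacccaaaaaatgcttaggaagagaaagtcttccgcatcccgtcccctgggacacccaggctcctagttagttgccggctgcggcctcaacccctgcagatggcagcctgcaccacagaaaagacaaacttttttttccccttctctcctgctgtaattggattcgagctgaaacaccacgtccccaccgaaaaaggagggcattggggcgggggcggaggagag

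Each of the 3 neighbours held 1 AP-1 and 1 TATA motif in this window. The first base of the AP-1 motif lay 46 bases before the start in Mmp3, 63 in Mmp10 and 35 in Mmp13. Both motifs together were found in 399 of 32851 RefSeq promoter windows of the same length (1.21%), AP-1 alone or with others in 6.75% and TATA in 12.4%. The windows of Mmp14, Timp1, Timp2 and Timp3 held neither AP-1 nor TATA. The PEA3 motif (AGGAAG) was searched as well and is not capitalised. It was found in the windows of Mmp3, Mmp13, Mmp14, Timp1 and Timp3, not in those of Mmp10 and Timp2, and in 29.5% of all windows. A match describes the letters and shows no binding. The motifs were chosen with earlier results of these data known, the 3 neighbours belong to a single gene cluster, and no enrichment was tested.

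Among the proteases of the tumour cells, Mmp14 and Mmp3 were the abundant transcripts. Mmp14, the membrane-anchored collagenase, stood at 181 CPM (179 to 184) in control and 166 CPM (164 to 168) in LTS tumour cells, from 20016 and 17775 UMIs. Mmp3, or stromelysin-1, which cuts proteoglycans and fibronectin and can activate other precursors, stood at 165 CPM (163 to 168) and 154 CPM (152 to 157). These levels differed little from each other and between the libraries, and each was far above the other secreted proteases.

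Mmp13, a secreted collagenase, reached 3.13 CPM in control and 2.85 CPM in LTS tumour cells. Mmp10, stromelysin-2, reached 1.92 and 1.91 CPM, and Mmp9, the gelatinase of neutrophils and osteoclasts, 1.45 and 1.49 CPM. Mmp2, the other gelatinase, was close to the limit of counting in tumour cells, with 37 UMIs in control and 14 in LTS (0.335 and 0.131 CPM). In both libraries the order of the 6 proteases in tumour cells was therefore Mmp14, Mmp3, Mmp13, Mmp10, Mmp9, Mmp2, and the intervals of Mmp10 (1.67 to 2.20 and 1.65 to 2.19) overlapped those of Mmp9 (1.23 to 1.69 and 1.27 to 1.74).

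Of the inhibitors, Timp2 was the most abundant in tumour cells at 269 CPM (266 to 272) in control and 252 CPM (249 to 255) in LTS. Timp1, a secreted inhibitor that growth factors and cytokines are known to induce, stood at 132 CPM (130 to 134) and 136 CPM (134 to 138). Timp3, the inhibitor that binds to the extracellular matrix, was nearly missing there, with 25 and 30 UMIs among all tumour cells (0.226 and 0.280 CPM).

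**Figure D1:**
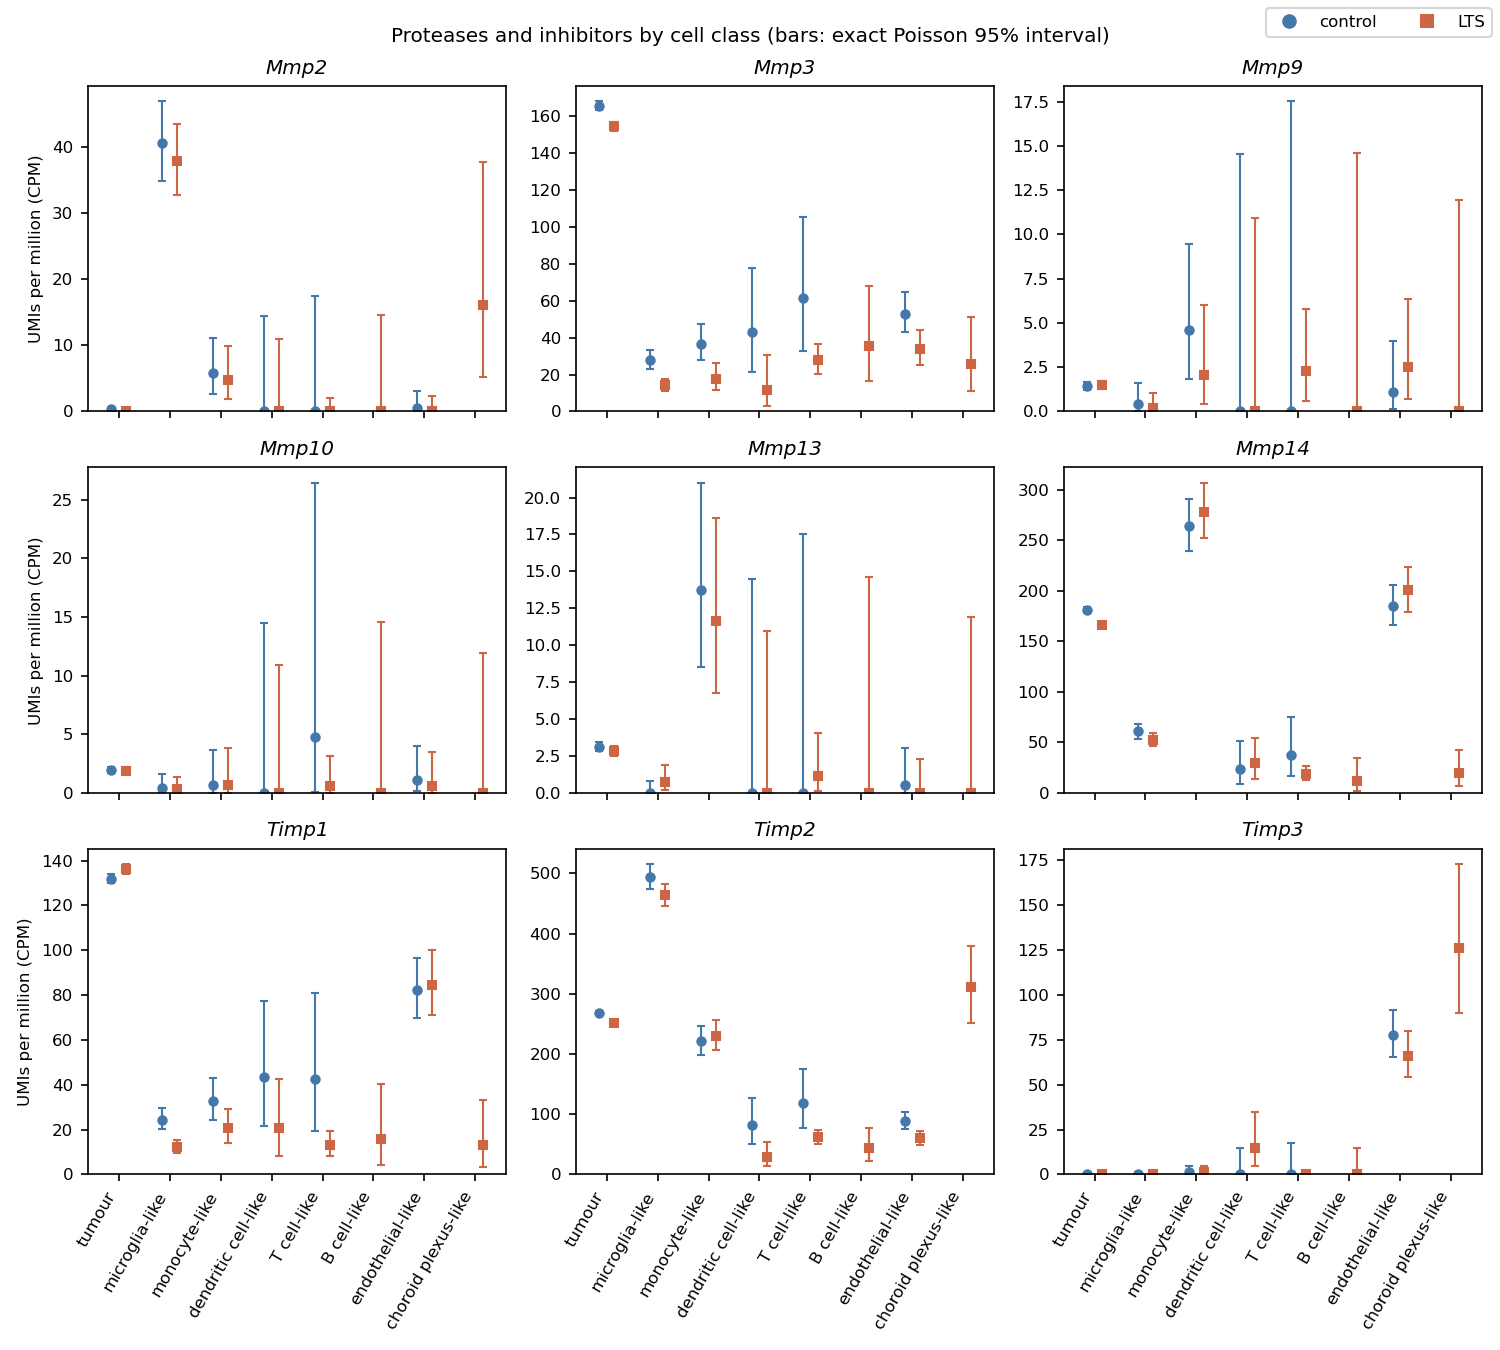
Level (CPM, vertical axis) of each of the 9 genes in 8 cell classes, control as blue circles and LTS as orange squares, with exact Poisson 95% intervals as bars. Classes under 50 cells in a library are left out for that library. Mmp3 and Timp1 were highest in tumour cells, Mmp2 and Timp2 in microglia-like cells, Mmp14 and Mmp13 in monocyte-like cells, and Timp3 in endothelial-like and choroid plexus-like cells.

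The host classes carried a different set. Microglia-like cells, the resident macrophages of the brain, held Mmp2 at 40.6 CPM (34.9 to 46.9) in control and 37.8 CPM (32.8 to 43.4) in LTS, above every other class in both libraries. Their Timp2 level, 494 CPM (474 to 515) and 464 CPM (446 to 483), was also above that of tumour cells. Mmp14 stood at 60.8 and 52.8 CPM in microglia-like cells, below the tumour level. The activation partners Mmp14, Timp2 and Mmp2 were thus all measured in this class, and Mmp2 was near 0 in the tumour cells beside it.

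Monocyte-like cells had the highest Mmp14 level of all classes, 264 CPM (239 to 291) in control and 278 CPM (252 to 307) in LTS. They also had the highest Mmp13 level, 13.7 CPM (8.499 to 21.0) and 11.6 CPM (6.77 to 18.6), from 21 and 17 UMIs. The 1% of monocyte-like cells with most Mmp13 held 52.4% of these UMIs in control and 58.8% in LTS. Timp2 stood at 221 and 230 CPM in this class.

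Timp3 was found mainly in vessel and choroid plexus cells. Endothelial-like cells had 77.5 CPM (65.3 to 91.4) in control and 66.03 CPM (54.1 to 79.9) in LTS, and the 64 choroid plexus-like cells of LTS had 126 CPM (89.7 to 172) from 39 UMIs. In control there were only 10 choroid plexus-like cells, too few for a level. Endothelial-like cells further held Mmp14 at 185 and 201 CPM and Timp1 at 82.5 and 84.7 CPM, the highest Timp1 level outside the tumour cells among classes of at least 50 cells. Choroid plexus-like cells of LTS held Timp2 at 311 CPM (252 to 379) and 5 UMIs of Mmp2.

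RNA set free by broken cells enters every droplet, and in these libraries it carries tumour transcripts. Its load was estimated from barcodes of over 300 and under 1000 UMIs, which numbered 53066 in control (mean 620.8 UMIs) and 43112 in LTS (mean 426.1 UMIs), on the assumption that these hold free RNA alone and that a cell's droplet holds as much. This range was picked after the distribution of UMIs per barcode was seen. In T cell-like cells the estimate gives 6.94 Mmp3 UMIs in control and 41.2 in LTS, where 13 and 49 were counted. For Timp1 it gives 7.96 and 30.4 in the same cells, where 9 and 23 were counted.

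Microglia-like cells held 125 and 76 UMIs of Mmp3 where the estimate was 59.8 and 55.0, and 110 and 65 UMIs of Timp1 where it was 68.7 and 40.6. Their Mmp2 lay 274 times above the estimate in control (182 UMIs counted) and 336 times above it in LTS (202 UMIs counted), and their Timp2 20.1 and 37.7 times above it. In monocyte-like cells Mmp14 was 22.4 and 48.4 times, Mmp13 41.9 and 42.1 times, and Mmp3 only 1.61 and 1.29 times the estimate. Endothelial-like Timp3 lay 1916 and 1189 times above it. The part of free RNA in any of these levels was not tested.

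When every cell was thinned to 1000 UMIs, 12.8% (11.9 to 13.7) of control tumour cells held a UMI of Mmp3, 17.8% of Mmp14, 12.1% of Timp1 and 23.3% of Timp2. The corresponding shares in LTS were 11.2%, 15.7%, 11.99% and 21.2%. Without thinning they were 65.2%, 91.7%, 84.3% and 96.9% in control and 64.3%, 93.7%, 91.2% and 96.4% in LTS. T cell-like cells, whose median was 1934 UMIs in control and 3223 in LTS, gave thinned shares for Mmp3 of 11.5% (5.65 to 20.1) and 3.797% (2.27 to 5.94). In the shallow control T cell-like cells the share could not be told apart from that of tumour cells, although their CPM was 61.7 against 165, and no order is read from it.

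The balance of both groups differed between classes. In tumour cells there were 1.13 inhibitor UMIs per protease UMI in control (1.12 to 1.15) and 1.19 in LTS (1.17 to 1.21). Microglia-like cells had 3.99 (3.64 to 4.38) and 4.49 (4.09 to 4.92), of which Timp2 made up most. Monocyte-like cells had 0.783 and 0.800, with more protease than inhibitor UMIs in both libraries, and choroid plexus-like cells of LTS had 7.32 (4.51 to 12.5). These are proportions of transcript ends and say nothing of active enzyme.

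Between the libraries, no measured member reached a 2-fold difference in any class compared once a pseudocount of 5 CPM was added. Without it, Mmp3 in monocyte-like cells was 2.06 times and Timp1 in microglia-like cells 2.01 times lower in LTS. A member counted as measured with at least 20 CPM in either library, and folds were taken on log2(CPM + 5). In tumour cells 0 of 4 measured members were 2-fold higher or lower in LTS, where 0.0156% of 6419 genes were higher and 0.171% lower. In microglia-like cells it was 0 of 5, with a background of 0.187% of 6430 genes higher and 0.467% lower, and in monocyte-like cells 0 of 4, with 0.319% of 6277 genes higher and 2.02% lower. At backgrounds this small, a count of 0 among so few genes is near the background.

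In tumour cells the ratio of LTS to control CPM was 0.93 for Mmp3 (0.91 to 0.95), 0.92 for Mmp14 (0.90 to 0.93), 0.94 for Timp2 (0.92 to 0.95) and 1.03 for Timp1 (1.01 to 1.06). The counting intervals are narrow because the counts are large, and with 1 library each the spread between animals is unknown. The median log2 ratio of the 4 genes was -0.09, against -0.01 over all 6419 genes. For the scarce members the ratio was 0.91 for Mmp13 (0.78 to 1.06), 0.99 for Mmp10 (0.81 to 1.21) and 1.03 for Mmp9 (0.82 to 1.29). Mmp2 in tumour cells had a ratio of 0.39 (0.19 to 0.74) from its 37 and 14 UMIs, at a level below the minimum.

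**Figure D2:**
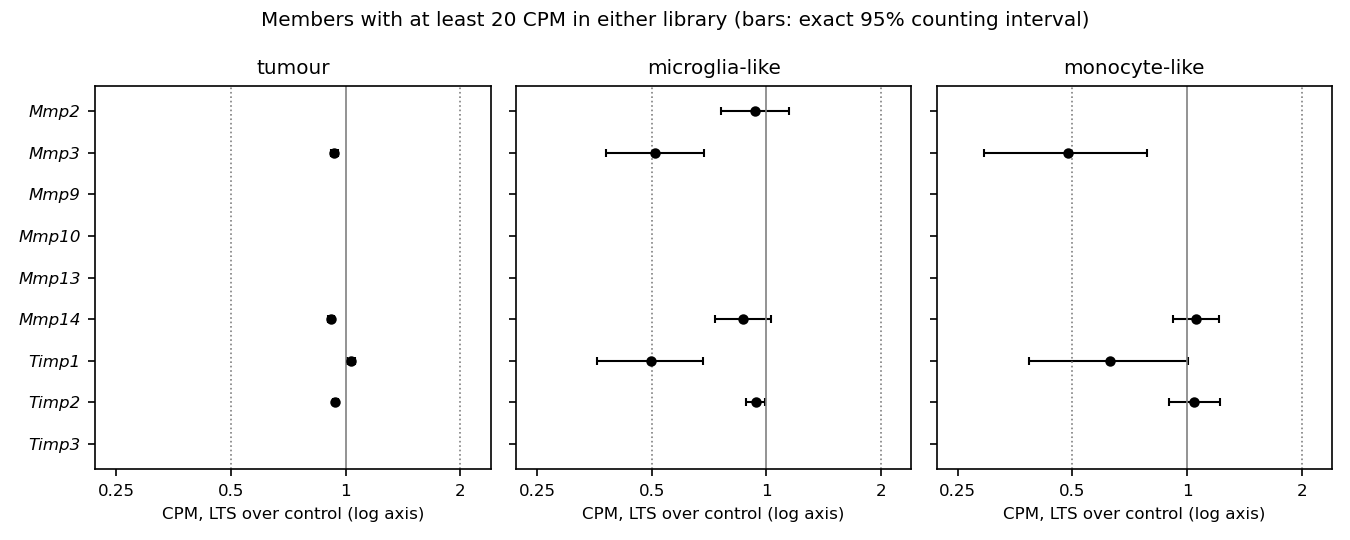
Ratio of CPM in LTS to CPM in control (horizontal log axis) for members reaching 20 CPM in control or LTS, in tumour, microglia-like and monocyte-like cells, with exact 95% counting intervals as bars, a solid line at 1 and dotted lines at 2-fold. Ratios in tumour cells lie between 0.92 and 1.03, while Mmp3 and Timp1 in microglia-like and monocyte-like cells lie between 0.49 and 0.63. The ratios are drawn without the pseudocount, so Mmp3 in monocyte-like and Timp1 in microglia-like cells lie just past the dotted line.

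Among members with at least 20 CPM, the widest differences in microglia-like and monocyte-like cells were those of Mmp3 and Timp1. Mmp3 stood at 27.9 CPM in control and 14.2 CPM in LTS microglia-like cells, a ratio of 0.51 (0.38 to 0.69), and Timp1 at 24.5 and 12.2 CPM, a ratio of 0.50 (0.36 to 0.68). In monocyte-like cells Mmp3 stood at 36.6 and 17.8 CPM (0.49, 0.29 to 0.79) and Timp1 at 32.7 and 20.5 CPM (0.63, 0.39 to 1.01). The total load of free RNA was lower in LTS too, with a mean of 620.8 UMIs per barcode in control and 426.1 in LTS. The make-up of that RNA differed as well. In these barcodes of over 300 and under 1000 UMIs, Mmp3 was higher in LTS, at 128 CPM in control and 204 CPM in LTS. Timp1 stood there at 147 and 151 CPM. The part of free RNA in these ratios was not tested. Taking free RNA off at a share set by tumour markers turned the direction of both genes in both classes: the log2 ratio of Mmp3 went from -0.77 to 0.57 in microglia-like and from -0.87 to 1.14 in monocyte-like cells, and that of Timp1 from -0.78 to 0.16 and from -0.56 to 1.54. Taking it off by the barcodes of over 300 and under 1000 UMIs gave -1.21 and -1.24 for Mmp3 and -0.64 and 0.31 for Timp1, so the direction of Mmp3 and Timp1 in these classes depends on the correction.

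The ratios of Mmp2, Mmp14 and Timp2 lay closer to 1 in the myeloid classes, and their direction also depended on the processing. In microglia-like cells the ratios were 0.93 (0.76 to 1.15) for Mmp2, 0.87 (0.73 to 1.03) for Mmp14 and 0.94 (0.89 to 0.99) for Timp2. In monocyte-like cells they were 1.05 (0.92 to 1.21) for Mmp14 and 1.04 (0.89 to 1.22) for Timp2. With free RNA taken off by tumour markers the log2 ratio went from -0.09 to -0.42 for microglia-like Mmp2, from -0.19 to 0.01 for microglia-like Mmp14 and from 0.07 to -0.26 for monocyte-like Mmp14. With mixed cells removed that of microglia-like Timp2 went from -0.09 to 0.05. Cluster 14, counted as microglia-like, held 6 control and 225 LTS cells, and cluster 1 the other 744 and 408; in cluster 1 alone the log2 ratio of Mmp3 was -1.002, just past 2-fold, and that of Mmp2 was -0.05.

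Across the 9 tumour states the proteases followed different patterns, while Timp1 was nearly flat. In the 8 states with at least 100 cells in both libraries, 0 of 4 measured members differed 2-fold between them. The background of genes 2-fold higher in LTS was 0.0158% in the Ccl2 and Lbh, 0.0156% in the Hist1h1b and Hist1h2ap, 0.0159% in the Hist1h2ap and Hmox1, 0.0157% in the Ung and Snhg20, 0% in the interferon response, 0.0154% in its Cxcl10 form, 0.0156% in the matrix-producing and 0.0155% in the mitosis state. The background of genes 2-fold lower was, in the same order, 0.127%, 0.14%, 0.287%, 0.189%, 0.229%, 0.216%, 0.0779% and 0.155%, so a count of 0 is near it in each. Mmp14 was highest in the matrix-producing state, which is marked by Postn, Mgp and Aspn, at 456 CPM (442 to 470) in control and 412 CPM (399 to 424) in LTS. That was 2.31 times (2.20 to 2.43) the next state in control and 2.35 times (2.24 to 2.46) in LTS. The lowest Mmp14 level, 98.3 and 89.9 CPM, was in the Hist1h2ap and Hmox1 state, whose leading genes included histone genes, Rrm2 of DNA synthesis and Il11.

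Mmp13 had the steepest pattern. The matrix-producing state held 13.7 CPM (11.4 to 16.3) in control and 9.40 CPM (7.63 to 11.5) in LTS, from 127 and 98 UMIs. The next state stood 3.36 times lower in control (2.50 to 4.55) and 2.48 times lower in LTS (1.73 to 3.59). In the Ung and Snhg20 state only 7 and 6 UMIs were counted, 0.513 and 0.406 CPM. The matrix-producing cells thus had the highest level of both collagenases, Mmp14 and Mmp13, in both libraries.

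Mmp3 did not share that order. It was highest in the Hist1h1b and Hist1h2ap state in control at 309 CPM (300.7 to 317.2), where LTS had 248 CPM, and highest in the Ccl2 and Lbh state in LTS at 261 CPM (252.3 to 270.4), where control had 250.5 CPM. In LTS the lead was small, since the Ccl2 and Lbh state was only 1.05 times (1.00 to 1.10) the Hist1h1b and Hist1h2ap state. The matrix-producing state came close, at 217 and 248 CPM. The Ung and Snhg20 state was lowest in both libraries at 66.1 CPM (61.8 to 70.5) and 65.3 CPM (61.3 to 69.6), so that the highest state was 4.67 times the lowest in control and 4.00 times in LTS.

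Mmp10 was highest in the interferon response state led by Cxcl10, at 3.597 CPM (2.63 to 4.80) and 3.57 CPM (2.61 to 4.76), from 46 UMIs in each library. The next state was within counting error in control (1.44 times lower, 0.93 to 2.23) and at its edge in LTS (1.69, 1.00 to 2.95). Mmp9 was highest in the interferon response state, at 3.07 and 2.77 CPM, from 48 and 33 UMIs. In LTS its Cxcl10 form was as high within counting error (2.71 CPM). In control the next state, Hmox1 and Slc7a11, was within counting error too (2.16 CPM, 1.42 times lower, 0.57 to 4.58). That state was the lowest in LTS, at 0.397 CPM. Mmp2 and Timp3 were too scarce in tumour cells to order the states.

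Timp2 ranged from 187 and 152 CPM in the Hist1h2ap and Hmox1 state to 403 and 388 CPM in the matrix-producing state. Timp1 ranged only from 113 to 150 CPM in control and from 105 to 156 CPM in LTS, a highest-to-lowest ratio of 1.33 (1.24 to 1.43) and 1.48 (1.38 to 1.59), with mitosis lowest in both. Inhibitor UMIs per protease UMI were lowest in the matrix-producing state, at 0.760 and 0.768, and in control the Hist1h1b and Hist1h2ap state was as low within counting error (0.762). They were highest in the Ung and Snhg20 state, at 1.89 and 1.96, where in LTS the interferon response state was as high within counting error (1.90). Coarser clustering (resolution 0.5) narrowed the ranges but kept the matrix-producing state highest for Mmp14, Mmp13 and Timp2 in both libraries, and made it the highest for Mmp3 too.

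**Figure D3:**
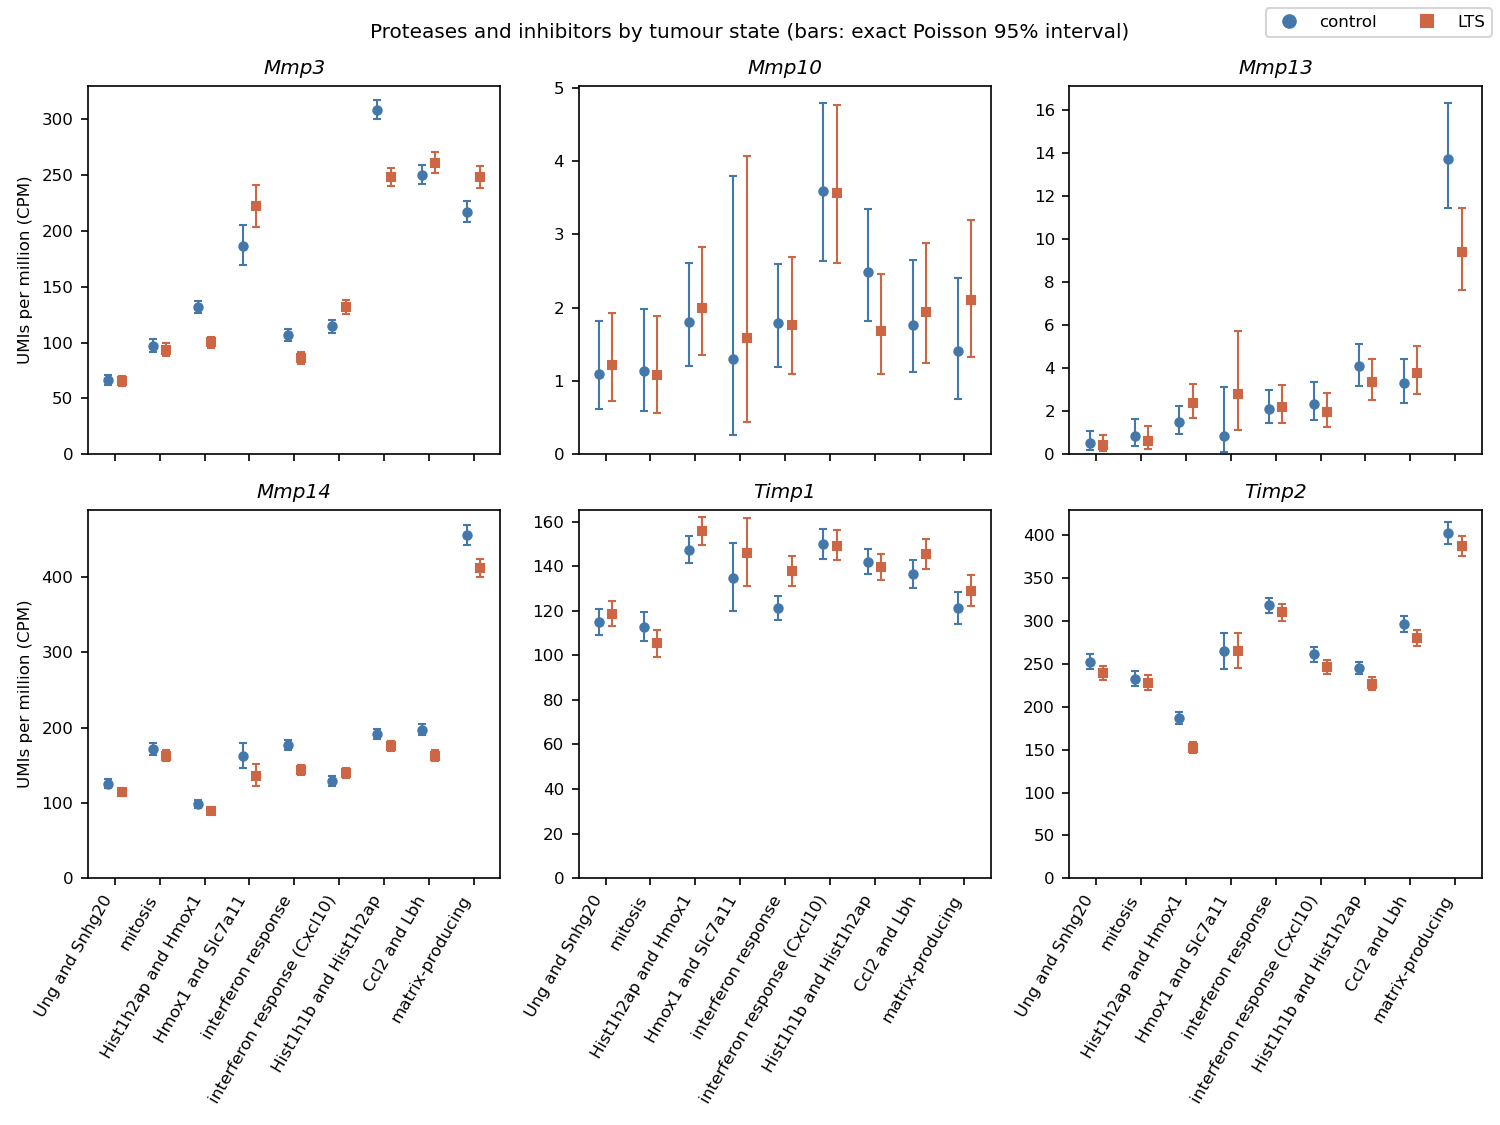
CPM (vertical axis, from 0) of 6 members in the 9 tumour states, control as blue circles and LTS as orange squares, with exact Poisson 95% intervals as bars. Mmp14, Mmp13 and Timp2 peak in the matrix-producing state, Mmp3 is lowest in the Ung and Snhg20 state, and Timp1 stays between 105 and 156 CPM.

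Mmp3 was spread very unevenly among tumour cells. In control 1791 of 5147 tumour cells (34.8%) had no Mmp3 UMI and the median cell had 1, while the highest cell had 695 Mmp3 UMIs among its 45387. In LTS 928 of 2603 (35.7%) had none, the median was again 1 and the highest cell had 423 among 31898. The 1% of tumour cells with most Mmp3 held 18.7% of all its UMIs in control and 22.7% in LTS, and 10% of cells held 60.1% and 66.05%. For Mmp14, at nearly the same mean level, the top 1% held 4.91% and 5.61%, for Timp1 5.24% and 4.71%, and for Timp2 3.72% and 4.56%.

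The unevenness was seen inside every state. The top 1% of cells of a state held between 13.3% and 22.5% of that state's Mmp3 UMIs in control and between 12.2% and 32.9% in LTS. For Mmp14 the range over states was 3.81% to 7.75% and 4.38% to 7.38%. A state's average thus stands for cells with very different Mmp3 counts.

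**Figure D4:**
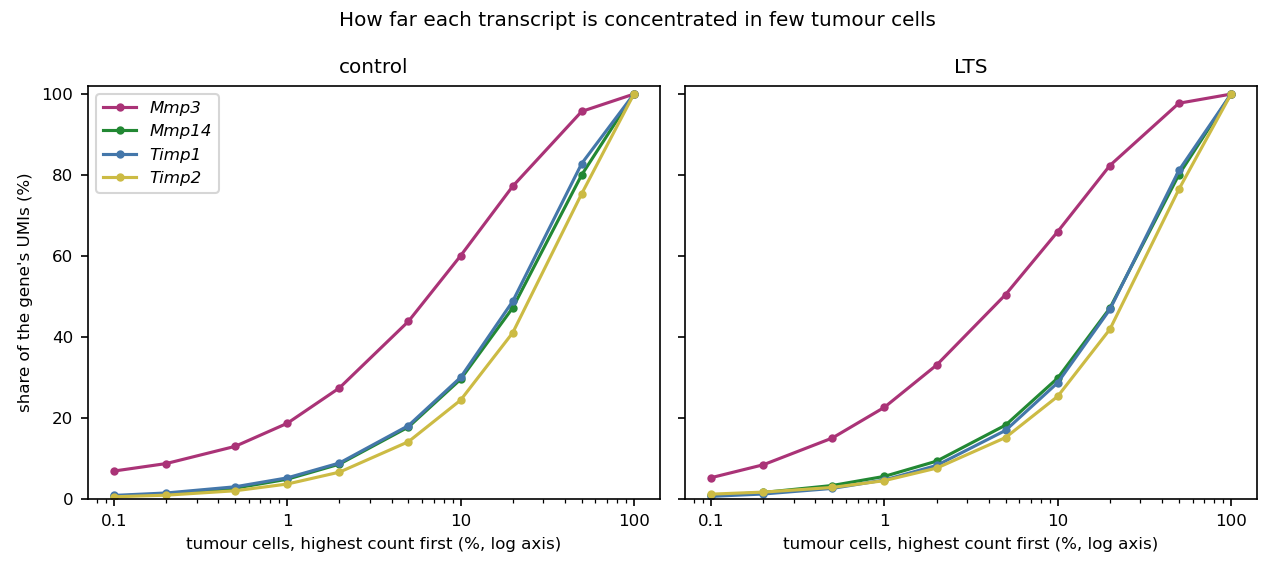
Cumulative share of a gene's UMIs (vertical axis, percent) against the share of tumour cells ranked from the highest count (horizontal log axis, percent), for 4 genes, with control on the left and LTS on the right. The Mmp3 curve runs above the others, with 10% of cells holding 60.1% of its UMIs in control and 66.05% in LTS.

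The tumour cells with the highest Mmp3 share were then described by their other genes. They were the top 1% by Mmp3 CPM within the cell, 52 control cells from 1769 CPM upward (the next cell was at 1763 CPM) and 27 LTS cells from 1992 CPM upward (next at 1970 CPM). The selection and the genes looked at were chosen after the uneven spread was seen, so the values are a description without a test. Their median UMIs were 18603 and 38971, near those of the remaining tumour cells (20356 and 40561), and they came from 7 of the 9 states in each library. Most were from the Ccl2 and Lbh state (16 and 10 cells), the Hist1h1b and Hist1h2ap state (12 and 5) and the matrix-producing state (9 and 6).

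Some of these cells also carried neighbouring genes of chromosome 9, and many did not. A UMI of Mmp13 was found in 18 of the 52 control and 16 of the 27 LTS cells, one of Mmp10 in 8 and 5, and one of Mmp12 in 4 and 2, while Mmp1b had 1 UMI in control and 0 in LTS. Summed over all of them, Mmp13 stood at 27.6 CPM in the 52 control cells, against 2.91 CPM in the other tumour cells and 4.05 CPM in other cells weighted to the same states. In the 27 LTS cells it stood at 64.4 CPM, against 2.25 and 2.89 CPM. Mmp10 stood at 19.7 CPM against 1.76 CPM in control, and at 19.5 CPM against 1.73 CPM in LTS. Mmp12, macrophage elastase, had 5 UMIs there in control and 4 in LTS, of 24 and 27 in all tumour cells.

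Of the members on other chromosomes, Mmp14, Timp1 and Timp2 lay close to the level of other tumour cells. Mmp2 had 1 UMI in these control cells and 0 in LTS, Mmp9 1 and 3, and Timp3 0 and 0, too few to compare. Mmp14 stood at 192 CPM against 181 CPM in control and 177 against 166 CPM in LTS, a ratio of 1.06 in each (0.92 to 1.22 and 0.91 to 1.23). Timp1 had ratios of 1.17 (0.99 to 1.37) and 0.89 (0.74 to 1.07), and Timp2 of 1.07 (0.95 to 1.20) and 1.01 (0.89 to 1.14). Of 4 AP-1 subunits looked at, Jun stood at 393 against 317 CPM in control and 352 against 306 CPM in LTS, ratios of 1.24 (1.12 to 1.37) and 1.15 (1.04 to 1.28). Fosl1 stood at 122 against 117 CPM and 157 against 125 CPM, ratios of 1.04 (0.87 to 1.24) and 1.26 (1.07 to 1.47). Junb stood at 129.98 against 129.7 CPM in control, a ratio of 1.002 (0.84 to 1.19), but at 78.1 against 131 CPM in LTS, a ratio of 0.59 (0.47 to 0.74), and Fos had ratios of 1.20 (0.59 to 2.15) and 1.10 (0.50 to 2.10). In other cells weighted to the same states, Jun stood at 342 CPM in control and 336 CPM in LTS, and Fosl1 at 103 and 97.7 CPM. Junb stood there at 130 and 137 CPM and Fos at 10.3 and 9.66 CPM. The intervals above belong to the comparison with all other tumour cells, and none was computed against the state-matched level. Jun in LTS was only slightly above that level (352 against 336 CPM), and Fosl1 in control (122 against 103 CPM) rested on 124 UMIs. Whether these 2 leads exceed counting error is not shown. Junb was below the state-matched level in LTS. Other Fos and Jun genes were not compared in these cells, and a part of AP-1 was not tested. Ptprc was at 4.92 CPM in control and 0.976 CPM in LTS (5 UMIs and 1 UMI), against 2.29 and 1.97 CPM in other tumour cells.

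Outside the members, the leading genes of these cells in both libraries were Il11, Ier3, Grem1, Igfbp3, Plau, Ccl2, Areg, Stc1, Mt2, Tnc and Ptgs2. These cells came mostly from a few states, and weighting the other cells to the same states brought some of the genes closer, such as Ccl2 in LTS, at 245 CPM against 82.5 CPM in all other cells and 132 CPM in state-matched cells. Il11, a cytokine of the interleukin 6 family, stood at 189 against 31.1 CPM in control and 141 against 33.8 CPM in LTS, with 31.0 and 34.6 CPM in state-matched cells. Plau, the urokinase that turns plasminogen into plasmin and belongs to the fixed plasminogen list, stood at 64.0 against 11.7 CPM and 72.2 against 14.8 CPM, with 11.99 and 12.01 CPM in state-matched cells. Ptgs2, the inducible prostaglandin synthase, stood at 248 against 48.8 CPM and 110 against 43.4 CPM, with 56.3 and 53.6 CPM in state-matched cells. Grem1, a secreted antagonist of bone morphogenetic proteins, stood at 160 against 45.1 CPM and 309 against 46.2 CPM, with 45.0 and 40.5 CPM in state-matched cells.

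Detection in the same cells was also counted in tumour cells thinned to 3000 UMIs. The Mmp3-rich cells described above were not left out, so these counts are not separate from them. Mmp3 and Mmp10 were found together in 16 of 5101 control cells, where the product of their shares gives 6.92, and in 10 of 2505 LTS cells, where it gives 3.89. Mmp3 and Mmp13 were found together in 32 cells against 13.3 in control and in 13 against 4.57 in LTS. With the product taken within states, the observed counts were 2.403 and 2.45 times the product for Mmp10 and 2.10 and 2.52 times for Mmp13. Mmp10 and Mmp13 were found together in only 1 control cell against 0.25 and in 0 LTS cells against 0.14. Mmp3 with Mmp14 gave 549 cells against 549 and 232 against 214, and Mmp3 with Timp2 740 against 737 and 277 against 299, both near the product. Mmp3 with Timp1 gave 426 against 417 in control and 209 against 183 in LTS. Mmp10 lay above the product with genes of other chromosomes too, from few cells. With Mmp14 it gave 13 against 10.5 in control and 9 against 6.35 in LTS. With Timp1 it gave 9 against 7.98 and 6 against 5.42, and with Timp2 19 against 14.1 and 10 against 8.88.

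Mmp9 was scarce in called cells, and a single cell held much of it. All called cells together held 189 Mmp9 UMIs in control and 314 in LTS, of which 130 came from 1 LTS cell in the unnamed cluster 13. That cell also had 112 UMIs of Ctsk, 158 of Acp5 and 12 of Ocstamp, genes known from osteoclasts and multinucleated macrophages, and none of the tumour gene Rhox5. Without it, LTS had 184 Mmp9 UMIs. Another 3 cells of cluster 13, 2 in control and 1 in LTS, had 3 to 8 Mmp9 UMIs with 20 to 64 of Acp5. Each of these had 0 UMIs of Ctsk, and 0 to 2 of Ocstamp. The other 223 control and 93 LTS cells of that cluster held 2 and 3 Mmp9 UMIs.

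Barcodes far below the calling limit were richer in Mmp9. In barcodes of 10 to 100 UMIs it stood at 146 CPM (113 to 185) in control and 129 CPM (104 to 158) in LTS, from 68 and 93 UMIs. At over 300 and under 1000 UMIs it was 2.34 and 5.82 CPM, and at 1000 or more 2.45 and 2.73 CPM. The neutrophil genes S100a8 and S100a9 stood at 8795 and 11926 CPM in the 10 to 100 bin of control and at 6237 and 8654 CPM in that of LTS, against at most 2.11 CPM in barcodes of 1000 or more UMIs. All 9 neutrophil markers of the fixed list, which also holds Mmp8, were present in that bin, with a summed level of 26507 and 19132 CPM, against 12.2 and 12.9 CPM in barcodes of 1000 or more UMIs. Csf3r was higher there by CPM too, at 36.5 and 38.9 CPM against 6.34 and 8.75 CPM in barcodes of 1000 or more UMIs. Cxcr2 stood at 30.0 and 20.8 CPM against 2.24 and 0.764 CPM. By share of UMIs, neither gene was concentrated in that bin. The bin held 1.67% and 1.90% of Csf3r UMIs and 3.53% and 9.62% of Cxcr2 UMIs. Barcodes of 1000 or more UMIs held 80.2% and 74.5% of Csf3r and 72.3% and 61.5% of Cxcr2. Of Mmp9 UMIs, 14.4% and 16.0% were in the 10 to 100 bin and 66.5% and 58.9% in barcodes of 1000 or more UMIs. For S100a8 the 10 to 100 bin held 78.1% and 79.8%. The part of neutrophil RNA in the Mmp9 level of these barcodes was not tested.

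**Figure D5:**
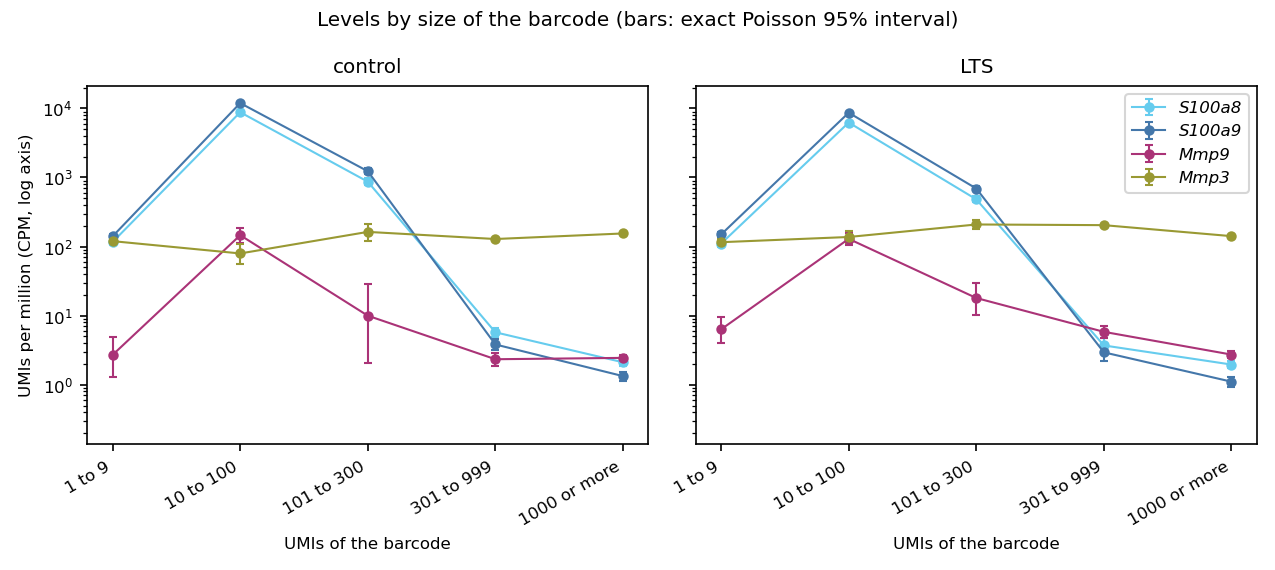
CPM (vertical log axis) of Mmp9, Mmp3 and the neutrophil genes S100a8 and S100a9 in barcodes grouped by their UMIs (horizontal axis), control on the left and LTS on the right, with exact Poisson 95% intervals as bars. Mmp9 reaches 146 and 129 CPM in barcodes of 10 to 100 UMIs, where S100a8 and S100a9 also peak, and Mmp3 stays between 79.4 and 209 CPM in all bins.

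Uncalled barcodes of 1 to 100 UMIs, the background named in the choice of members, held Mmp3 at 115 CPM in control, Mmp14 at 84.0 CPM, Timp1 at 125 CPM and Timp2 at 272 CPM. For Timp1 and Timp2 these were close to the levels of control tumour cells, Mmp3 was lower than there (165 CPM), and Mmp14 was well below its tumour level of 181 CPM. Mmp9 stood at 18.7 CPM in these control barcodes, above every called class. Timp3 stood at 4.80 CPM, above the tumour level and below that of endothelial-like cells.

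The genes around the members were counted from 7 fixed lists. In tumour cells 0 of the 45 measured genes of these lists were 2-fold higher or lower in LTS, near the background of 0.0156% and 0.171%. Of 17 other metalloproteinases none reached 20 CPM in tumour cells, with Mmp11 highest at 13.3 and 12.9 CPM. Of 12 other inhibitors and surface partners 6 were measured, with Bsg, or basigin, a known inducer of metalloproteinases, highest at 875 and 863 CPM. The plasminogen list had 5 of 9 measured, led by S100a10 at 744 and 749 CPM, the ADAM and ADAMTS list 6 of 16, led by Adam10 at 65.4 and 75.2 CPM, and the proprotein convertases 1 of 4, Furin, at 47.5 and 42.5 CPM. Of matrix substrates 11 of 15 were measured, led by Col3a1 at 725 and 735 CPM, and of transcription regulators 16 of 17, led by Jun at 318 and 306 CPM. Median log2 ratios of the lists with measured genes lay between -0.15 and 0.09.

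In host cells 1 of 30 measured list genes was 2-fold lower in LTS microglia-like cells (background 0.467%) and 1 of 34 was 2-fold higher in LTS monocyte-like cells (background 0.319%). Both are named for that reason, after their values were seen. Mmp12 stood at 16.3 CPM (25 UMIs) in control and 38.3 CPM (56 UMIs) in LTS monocyte-like cells, a log2 ratio of 1.02, against under 0.1 UMI expected from free RNA. S100a10 stood at 155 CPM in control and 73.1 CPM in LTS microglia-like cells, a log2 ratio of -1.04, with 697 and 390 UMIs counted and 509 and 213 expected from free RNA.

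The genes whose levels over 30 profiles (classes and tumour states by library) were most like a member's were taken by Pearson's r of log2(CPM + 5), as a description, since profiles share libraries, depth and free RNA. For Mmp2 they were Ctsf, Gas6 and Usp2 (r from 0.949 to 0.965), all highest in microglia-like cells. For Mmp3 they were Lgals7, Cdkn2a and Emp2 (0.932 to 0.948), and for Timp1 Pam, Akr1b8 and Carhsp1 (0.973 to 0.978), each highest in a tumour state. For Mmp14 they were Ralgds, Emilin1 and Fn1 (0.879 to 0.907), of which Emilin1 and Fn1 encode matrix proteins. For Timp2 they were Ak1, Mocs2 and Lrp1 (0.848 to 0.898), the last an endocytic receptor known to clear metalloproteinases and their inhibitors, and for Timp3 Slco1c1, Nsg1 and Fam84b (0.942 to 0.953), with Slco1c1 highest in endothelial-like cells. The scarce members had lower values: Pla2g7, Itgav and S100a8 for Mmp13 (0.700 to 0.767), Smc5, Exosc7 and Sf3b4 for Mmp10 (0.778 to 0.781), and Man2a1, Rnf20 and Ecm1 for Mmp9 (0.608 to 0.662).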

How the data were processed

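Unfiltered UMI count matrices of 6794880 barcodes by 27998 genes were deposited by the authors for each library. Per the file headers they are output of Cell Ranger 4, and per the submitters' processing notes the build was mm10. The depth was 165796852 UMIs in control and 149413534 in LTS. Here cells were called at 1000 UMIs, 300 genes and 15% mitochondrial UMIs, which removed 817 control and 604 LTS barcodes for mitochondrial UMIs and 1 LTS barcode for genes. Both libraries were clustered together with scanpy 1.11.5 (2000 variable genes, 30 components, 15 neighbours, Leiden resolution 1), leaving out every gene of the protease lists. A class was named from 3 or more fixed markers; the exact naming rule was written after the data were seen. A tumour state took a list's name only with at least 2 of its markers among the top 10 genes. No doublet caller was run; cells with both tumour markers and Ptprc were removed as an alternative.

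UMIs were summed per class and library. Intervals are exact Poisson (levels), Clopper-Pearson (shares) and exact conditional (ratios) at 95%. Classes with at least 100 cells in each library were compared, with a pseudocount of 5 CPM, and no test was made between single libraries. A tumour cluster was to have Ptprc and Y-linked genes under 10% of the level in immune clusters. The text names all 9 members, genes of the fixed lists past 2-fold in tumour cells, the highest gene of each list and the 3 genes most like each member; other genes are said to be chosen after their values were seen. Gene positions are from GENCODE M21 and promoters from RefSeq. The members, lists and motifs were chosen with earlier results of these data known. The ratio step was tested on simulated data. Alternatives covered the UMI minimum, free RNA, cell weighting, scaling, the CPM minimum, the clustering resolution, the pseudocount, thinning and the barcodes used as background.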

Additional observations from a re-analysis of the deposited data

How the results depend on the processing

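The count of 0 members past 2-fold held in tumour, microglia-like and monocyte-like cells under every alternative run except these: in cluster 1 alone (an alternative chosen after seeing the data) 1 member was lower in LTS microglia-like cells, and with a pseudocount of 1 CPM 1 member was lower in LTS monocyte-like cells, Mmp3 each time. Taking free RNA off put Mmp3 and Timp1 of the myeloid classes at log2 ratios from -1.24 to 1.54; those past 2-fold were under 20 CPM by then and were not counted. Inhibitor UMIs per protease UMI in tumour cells moved to 1.23 in control and 1.32 in LTS without the 1% of cells with most member UMIs. With free RNA taken off by tumour markers they moved to 5.46 in control and 5.15 in LTS microglia-like cells and to 0.484 in control monocyte-like cells. With free RNA taken off by barcodes of over 300 and under 1000 UMIs, an alternative chosen after seeing the data, they moved to 4.38, 5.02 and 0.644. The tumour markers put free RNA at 30.8% of control and 10.1% of LTS microglia-like UMIs, the barcodes at 10.4% and 5.05%. The cause of these shifts was not tested beyond the construction of each alternative. No paired analysis was possible because each group has 1 library, and for the same reason no library could be left out. Free RNA was not taken off tumour cells. Few cells and UMIs limit the levels in dendritic cell-like and B cell-like cells.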
